A study of Mus musculus with 6 samples.

Results

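The genes described here are transcription factors of the trophectoderm and of the primitive endoderm, the extraembryonic layers of the mouse blastocyst, in undifferentiated mouse embryonic stem cells (mESCs) that lack *Alkbh1*. They were chosen by name: *Cdx2*, *Eomes*, *Elf5*, *Tfap2c*, *Tead4*, *Gata2*, *Gata3* and *Hand1* as the 8 trophectoderm members, and *Gata4* and *Gata6* as the 2 primitive endoderm members. The choice was made with earlier results of these data known. Of these 10 genes, 9 were measured by 18 probe sets, among 15357 genes that could be named in a table of 33142 probe sets, and *Elf5* was not analysed here. A probe set is a group of short oligonucleotides on the array that reads the same transcript, and a gene with several is given by the one with the highest mean.

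The arrays compared C57BL/6 mESCs of 2 genotypes, wild type (WT) and *Alkbh1*-/-, with 3 arrays each, all at passage 8 and day 0, that is before differentiation was induced. Both lines were derived from littermate blastocysts and kept undifferentiated with leukemia inhibitory factor, untreated, on irradiated fibroblast feeders. The labels give 1 culture code per genotype with a running number, and nothing says that the arrays of a genotype came from separate lines or cultures, so that p-values measure the spread between these arrays, which may be technical. The tables analysed here give the comparison of the genotypes. Single-array values were not analysed here, so each member is given by its computed group means with their error, and nothing is said of overlap between arrays.

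The trophectoderm is the outer layer of the blastocyst and gives rise to the trophoblast of the placenta, while the primitive endoderm gives rise to the yolk sac. TEAD4, with its partner YAP1, switches on *Cdx2* and *Gata3* in the outer cells of the embryo, and CDX2, EOMES, ELF5 and TFAP2C maintain trophoblast stem cells, whereas GATA6 and then GATA4 act in the primitive endoderm. mESCs stand for the inner cells that keep these programs low, and loss of ALKBH1 in mice has been linked to defects of the placental trophoblast.

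The members that differed between the genotypes were *Gata3* and *Gata2*, both higher in *Alkbh1*-/- mESCs. *Gata3* was called, meaning that its adjusted p lay under 0.05 and its fold, on the linear scale, exceeded 1.5, and *Gata2* passed the adjusted p at a smaller fold. The other 7 measured members did not pass, and for each of them the 95% confidence interval at the brightest probe set lay within a 1.5-fold difference. Among them, *Cdx2*, *Tead4*, *Hand1*, *Gata4* and *Gata6* had means below the median of all probe sets, 6.31. For these genes the intervals do not show whether the transcript was present, so they cannot show that it was unchanged. The 1 member called of 9 is 1 of 7 trophectoderm members and 0 of 2 primitive endoderm members, and 8.52% of all named genes were called by the same rule (4.45% higher and 4.07% lower). At an adjusted p under 0.05 without a fold, 2 of the 9 members passed, both higher, against 16.1% of all named genes (7.69% higher and 8.37% lower). The median log2 difference of the 9 members was 0.07, and that of all named genes was −0.03. In RNA from a whole culture, fewer cells of a type and less RNA per cell cannot be told apart.

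**Figure D1:**
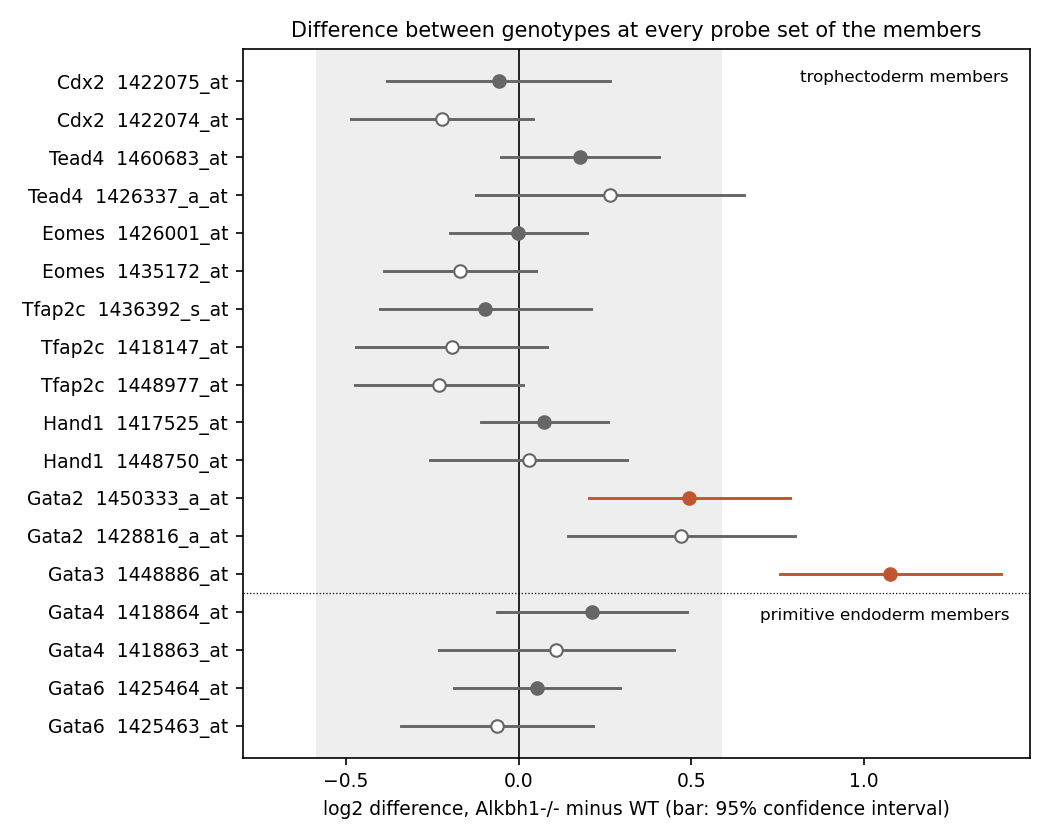
The log2 difference, *Alkbh1*-/- minus WT, of each of the 18 probe sets of the members (points) with its 95% confidence interval (bars), from 3 arrays per genotype; filled points are the brightest probe set of a gene, orange marks an adjusted p under 0.05 and the grey band is a difference under 1.5-fold. *Gata3* lies beyond the band with its whole interval, *Gata2* straddles the band's upper edge, and the brightest probe sets of the other members have intervals inside it.

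The cultures were checked with markers in the same arrays. *Alkbh1* was lower by −4.89 on the log2 scale at 1434660_at in *Alkbh1*-/- mESCs. All 8 embryonic stem cell genes had a mean log2 value of 10.05 or more, and 1 was called, *Nanog*, higher by 1.10 (8.52% of all named genes were called), while *Tdgf1* and *Sox2*, the brightest not called, were at 0.32 and 0.26. At an adjusted p under 0.05 without a fold, 2 of the 8 passed higher (*Nanog* and *Tdgf1*) and 3 lower (*Lin28a* at −0.56, *Utf1* at −0.49 and *Sall4* at −0.38). By that rule 16.1% of all named genes passed, 7.69% higher and 8.37% lower. All 22 fibroblast genes, which read the feeders, had lower values in *Alkbh1*-/- mESCs, with log2 differences from −1.11 to −0.30 and a median of −0.81, and the log2 of their summed computed signal was 14.61 in WT and 13.81 in *Alkbh1*-/- mESCs. In limma's moderated test 0 of them were called, and 0 by Student's test, with 3 called under a trended prior variance (8.9% of all named genes) and 11 at an unadjusted p under 0.05 with the same fold (9.74%). *Thbs1* and *Col1a2*, the brightest of them, were at −0.55 and −0.84. The fibroblast genes had lower values where *Gata2* and *Gata3* had higher ones, and the part of feeder content in any difference given here was not tested. The lines also differed in their sex chromosomes: the Y-linked *Eif2s3y* was lower by −5.65, and of 524 X-linked genes 211 were called higher and 11 lower. The 9 measured members are autosomal, and without the X- and Y-linked probe sets in the adjustment, limma's adjusted p was 0.00368 for *Gata3* and 0.0468 for *Gata2*. Genotype and the sex-chromosome content of the line cannot be told apart in these arrays.

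The 250 bases before the annotated starts of *Gata3* and *Gata2* are shown because these are the members that were higher in *Alkbh1*-/- mESCs. They were taken from RefSeq (GRCm38.p6), which gives 1 start for *Gata3* on the minus strand, at chr2:9878601-9878850, and 2 for *Gata2* on the plus strand, at chr6:88193641-88193890 and chr6:88198414-88198663. The AP-2 motif is its own reverse complement, and in these windows no match overlapped one to another motif. Each window is written 5′ to 3′ along the gene, and capitals mark matches on either strand to the motifs of the GATA factors (AGATAA and AGATAG and TGATAA and TGATAG), of TEAD factors (GGAATG), of AP-2 factors such as TFAP2C (GCCNNNGGC) and of T-box factors such as EOMES (AGGTGTGA).
*Gata3*: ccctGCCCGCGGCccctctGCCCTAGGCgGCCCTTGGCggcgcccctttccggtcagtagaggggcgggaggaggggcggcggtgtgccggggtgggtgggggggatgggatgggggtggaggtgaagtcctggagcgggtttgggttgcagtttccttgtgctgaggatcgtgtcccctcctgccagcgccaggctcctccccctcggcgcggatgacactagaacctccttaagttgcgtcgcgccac
*Gata2*, first start: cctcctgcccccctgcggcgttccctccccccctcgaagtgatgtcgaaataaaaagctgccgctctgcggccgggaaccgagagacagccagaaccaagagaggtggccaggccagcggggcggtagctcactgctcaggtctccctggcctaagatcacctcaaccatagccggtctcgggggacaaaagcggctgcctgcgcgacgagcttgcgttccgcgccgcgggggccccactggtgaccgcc
*Gata2*, second start: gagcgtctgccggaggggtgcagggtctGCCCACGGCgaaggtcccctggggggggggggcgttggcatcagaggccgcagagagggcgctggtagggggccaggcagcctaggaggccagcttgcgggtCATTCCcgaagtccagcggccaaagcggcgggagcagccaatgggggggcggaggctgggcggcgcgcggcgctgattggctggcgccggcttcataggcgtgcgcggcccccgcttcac

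In the *Gata3* window, 3 AP-2 matches that do not overlap begin 246, 231 and 221 bases before the start. At least 1 AP-2 match was found in 13.7% of 32851 such windows, and at least 3 in 0.289%. The fixed letters of the AP-2 motif are all G or C. The *Gata3* window was 70.0% G and C, against a median of 52.4% over all windows. No share was taken over windows of like composition. The window of the first *Gata2* start held none of the motifs, and that of the second held 1 AP-2 match, 222 bases before the start, and 1 TEAD match, 120 bases before it, a motif found in 12.6% of windows. The GATA and T-box letters had no match in these 3 windows, against 26.5% and 1.12% of all windows with a match. The windows of *Gata3* and *Gata2* were rich in CpG, with 19, 22 and 24 CpG dinucleotides against a median of 6 over all windows. Among the other members with a window, *Cdx2* had 13 CpG and 1 AP-2 match 16 bases before its start, and *Eomes* had 8 CpG and no match. *Elf5* had 2 windows, 1 with 2 CpG, a GATA match 218 bases and a TEAD match 173 bases before the start, and 1 with 8 CpG and no match. A match describes the letters only, and no binding was measured here.

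GATA3 is a zinc finger factor that acts in the trophectoderm beside CDX2 and later in trophoblast giant cells. At its only probe set, 1448886_at, the computed mean log2 value was 4.87 in WT mESCs and 5.95 in *Alkbh1*-/- mESCs. The log2 difference was 1.08 (standard error 0.14, 3 arrays per genotype), which is a 2.11-fold higher signal with a 95% confidence interval from 1.69 to 2.63, and the adjusted p was 0.00291 in limma's moderated test. The whole interval lay beyond 1.5-fold, and by p-value the probe set ranked 992 of 33142. Both group means lay below the median of all probe sets, 6.31.

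GATA2 is the factor closest to GATA3 in the trophoblast, where both act on genes of giant cells, and it also acts in blood progenitors. At the brighter probe set, 1450333_a_at, the computed mean was 6.25 in WT and 6.75 in *Alkbh1*-/- mESCs. The log2 difference was 0.49 (standard error 0.12), a fold of 1.41 with an interval from 1.15 to 1.72, and the adjusted p of 0.0421 in limma's moderated test lies close to the threshold. The second probe set, 1428816_a_at, had a log2 difference of 0.47 (standard error 0.14) and an adjusted p of 0.0737, so that it gave nearly the same size without passing. Student's test on the recovered variances gave *Gata2* an adjusted p of 0.133 and *Gata3* one of 0.0392, so that *Gata2* no longer passed the adjusted p and *Gata3* did. Over all settings of the test, the adjusted p ranged from 0.0303 to 0.133 for *Gata2* and from 0.00133 to 0.0392 for *Gata3*.

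*Tead4*, the factor at the head of the trophectoderm program, had a computed mean of 5.84 in WT and 6.02 in *Alkbh1*-/- mESCs, a log2 difference of 0.18 with an interval from −0.05 to 0.41 (adjusted p = 0.302 in limma's moderated test). Its other probe set was at 0.26 with the widest interval among the members, from −0.12 to 0.65, which does not lie within 1.5-fold. *Cdx2*, the homeobox factor that TEAD4 activates, had computed means of 4.58 and 4.52, a log2 difference of −0.06 with an interval from −0.38 to 0.27 (adjusted p = 0.839, same test). The dimmer probe set of *Cdx2* was at −0.22, with an interval from −0.49 to 0.04. *Gata3* was higher in arrays in which the brightest probe sets of *Tead4* and *Cdx2* had intervals within a 1.5-fold difference. The mean log2 values of the *Cdx2* probe sets, 4.55 and 4.36, and of the *Tead4* probe sets, 5.93 and 5.62, lay below the median of all probe sets, 6.31. Such readings do not show whether the transcript of either gene was present, so they cannot show that it was unchanged.

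The factors that maintain trophoblast stem cells had no difference that passed the test. *Eomes*, a T-box factor, had computed means of 7.20 in both genotypes, with a log2 difference of −0.00 at a standard error of 0.08 and an interval from −0.20 to 0.20 (adjusted p = 0.993 in limma's moderated test). Its other probe set read −0.17, with an interval from −0.39 to 0.05. *Tfap2c*, an AP-2 factor that is also active in germ cells, had computed means of 9.43 in WT and 9.33 in *Alkbh1*-/- mESCs and a log2 difference of −0.10, with an interval from −0.40 to 0.21 (adjusted p = 0.698, same test). The other probe sets of *Tfap2c* were at −0.19 and −0.23, the last with an interval from −0.47 to 0.01. All 3 *Tfap2c* probe sets thus lay on the negative side, and none of them passed.

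*Hand1*, a basic helix-loop-helix factor needed for trophoblast giant cells and the heart, had computed means of 5.19 in WT and 5.26 in *Alkbh1*-/- mESCs. Its log2 difference was 0.07, with an interval from −0.11 to 0.26 and a standard error of 0.08 (adjusted p = 0.613 in limma's moderated test). The second probe set was at 0.03. At the brighter probe set of *Hand1*, the upper end of the interval lies below the lower end of that of *Gata3*, 0.76. The mean log2 values of the *Hand1* probe sets, 5.22 and 4.56, lay below the median of all probe sets, 6.31. They do not show whether the *Hand1* transcript was present.

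**Figure D2:**
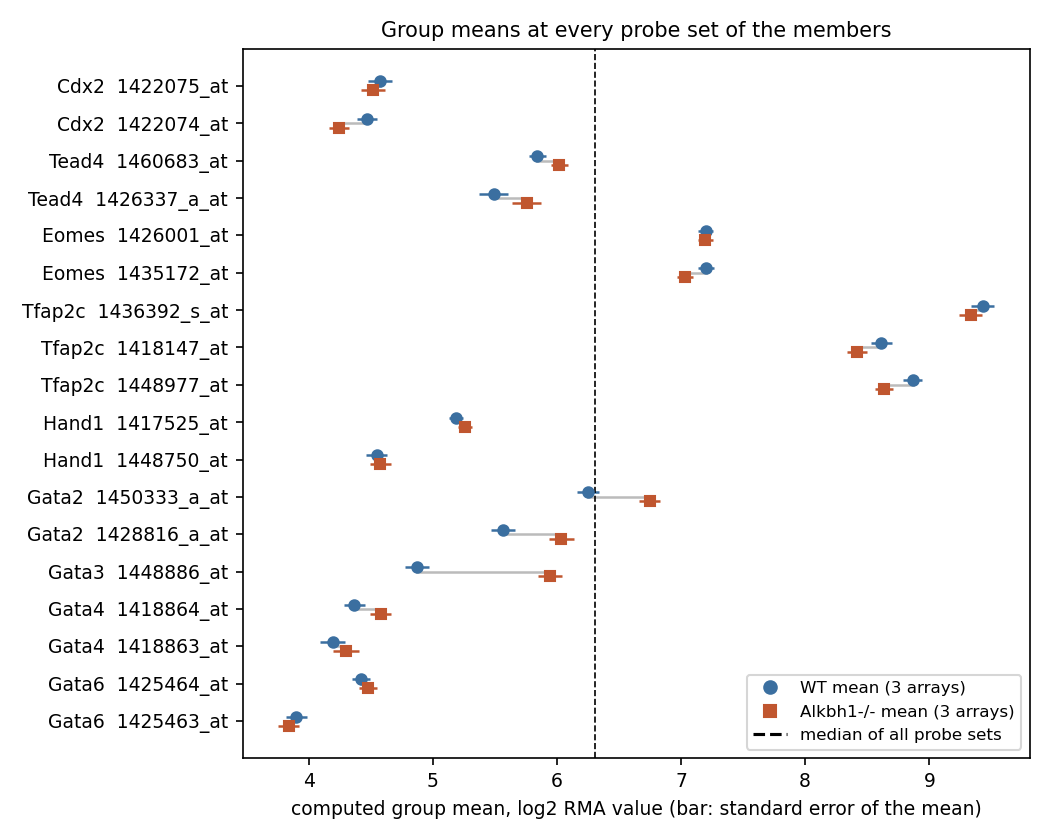
Computed mean log2 value of WT (circles) and *Alkbh1*-/- (squares) mESCs at each of the 18 probe sets of the members, with the standard error of a group mean of 3 arrays (bars) and the median of all probe sets, 6.31 (dashed line). The means of the genotypes are far apart for *Gata3*, at 4.87 and 5.95, and close at the brightest probe sets of *Cdx2*, *Eomes*, *Hand1* and *Gata6*. Readings of different probe sets are not levels that can be compared.

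The primitive endoderm members were at similar readings in both genotypes. *Gata4* had computed means of 4.37 in WT and 4.58 in *Alkbh1*-/- mESCs, a log2 difference of 0.21 with an interval from −0.06 to 0.49 (adjusted p = 0.302 in limma's moderated test). The dimmer probe set of *Gata4* was at 0.11. *Gata6*, the earliest factor of this layer, had computed means of 4.42 and 4.48, a log2 difference of 0.05 with an interval from −0.19 to 0.29 (adjusted p = 0.805, same test), and its dimmer probe set was at −0.06, so that it was the only member with probe sets of opposite sign. Of these 2 genes 0 were called (8.52% of all named genes), and 0 passed the adjusted p without a fold (16.1%). All 4 probe sets lay below the median of the table, and at such readings the arrays give no separate call of presence, so that these values do not show whether the transcripts were present.

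For the 8 members with several probe sets, the probe sets of a gene lay within 0.17 of each other on the log2 scale, and the span was 0.02 for *Gata2*. The standard errors of the members at the brightest probe set ran from 0.08 to 0.14, around the median of 0.11 over all probe sets. Among the 9 members, 6 had a positive difference and 3 a negative one. The plot of the members among all genes shows *Gata3* apart from the other members and *Gata2* next.

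**Figure D3:**
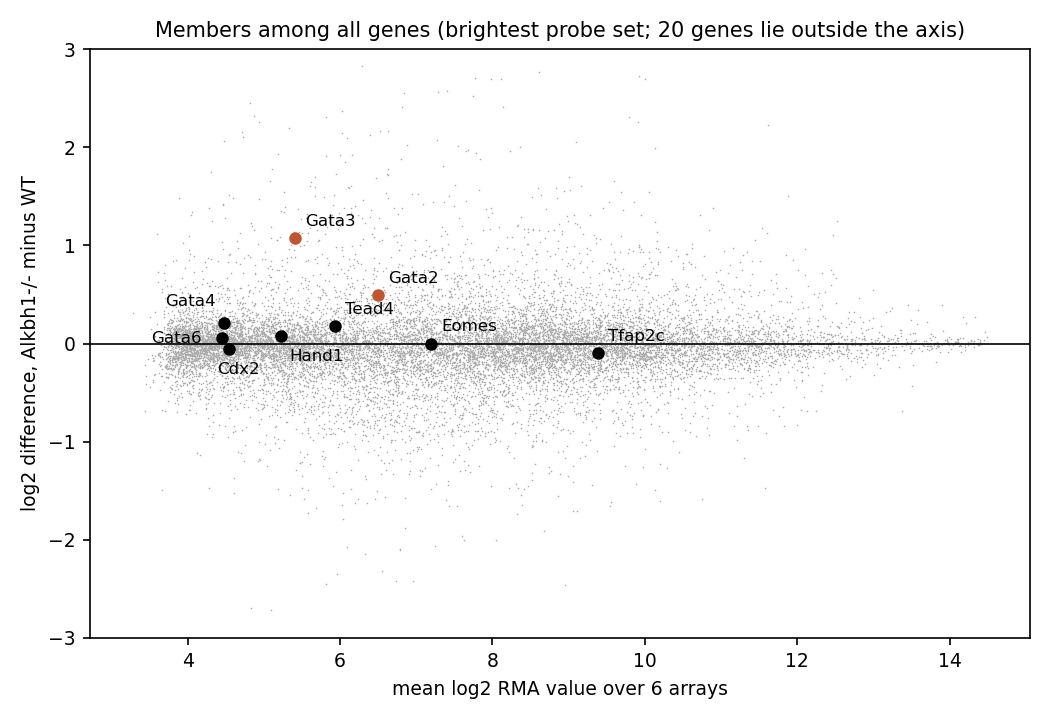
Mean log2 value over 6 arrays (horizontal) against the log2 difference, *Alkbh1*-/- minus WT (vertical), for the brightest probe set of each of 15357 genes (grey) and of the 9 members (black, or orange with an adjusted p under 0.05); 20 genes lie outside the vertical axis. *Gata3* at 1.08 and *Gata2* at 0.49 lie above the other 7 members, which are between −0.10 and 0.21.

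The rest of the Gata family and its cofactors gave a further reading of these factors. Of 5 such genes, all measured, 0 were called in limma's moderated test (8.52% of all named genes), 0 by Student's test (5.86%) and 0 at an unadjusted p with the fold (9.74%). Without a fold, 1 of the 5 passed the adjusted p, against 16.1% of all named genes. That gene, *Trps1*, a GATA-type repressor, had a log2 difference of 0.53 (standard error 0.10, adjusted p = 0.0176 in limma's moderated test), a fold of 1.44. *Zfpm1*, a cofactor that binds GATA factors, was at 0.22 (adjusted p = 0.209, same test). *Gata1* and *Gata5* were at −0.10 and 0.07 and *Zfpm2* at −0.10, and none of them passed. Within the Gata family proper, 2 of 6 measured genes had an adjusted p under 0.05 (*Gata2* and *Gata3*), against 16.1% of all named genes, and *Gata2* did not pass with Student's test.

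The Hippo pathway holds YAP1 outside the nucleus in inner cells and so keeps TEAD4 from activating *Cdx2*. Of 20 genes of this pathway and its targets, 2 were called, both lower in *Alkbh1*-/- mESCs (8.52% of all named genes were called), and their median log2 difference was −0.14. *Amot*, which tethers YAP1 at the membrane and is X-linked, fell by 1.05 on the log2 scale (standard error 0.18, adjusted p = 0.00989 in limma's moderated test). *Ccn2*, a target of YAP1 and TEAD factors, fell by 0.68 (standard error 0.15, adjusted p = 0.0260, same test). *Amotl2* and *Tead1*, the brightest genes that were not called, had log2 differences of −0.04 and −0.23. *Yap1* itself was at −0.25 (adjusted p = 0.0869, same test), and *Tead2* and *Tead3* at −0.11 and −0.17. *Amotl1*, at −0.47, passed the adjusted p at a fold that was not called (adjusted p = 0.0341, same test). The targets *Ccn1* and *Ankrd1* were at −0.36 and −0.86 and did not pass. The highest difference of the list, 0.34 at *Mob1a*, did not pass either. With Student's test 0 of the 20 genes were called (5.86% of all named genes), and without X-linked genes 1 was, *Ccn2*. Fibroblast signal was lower in the same direction as *Ccn2* and *Amot*, and its part in their differences was not tested.

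Genes of the trophoblast beyond the members changed in both directions. Of 26 listed genes 22 were measured and 7 were called, 2 higher and 5 lower in *Alkbh1*-/- mESCs, a share of 31.8% against 8.52% of all named genes, and the median log2 difference of the 22 was −0.08. This list, like the others given here, was chosen with earlier results of these data known. Its share describes the list and was not tested. *Ets2*, an ETS factor needed in trophoblast stem cells, rose by 1.57 (standard error 0.09, adjusted p = 0.000203 in limma's moderated test), from a computed mean of 8.24 to 9.81. *Krt8* and *Krt18*, the keratins that form the filaments of the trophectoderm, had log2 differences of −1.55 and −1.47 (adjusted p = 0.00203 and 0.00410, same test). *Phlda2*, an imprinted gene that restrains placental growth, fell by 1.23 (adjusted p = 0.00255, same test). *Id2* and *Arid3a*, the brightest genes that were not called, were at 0.68 and −0.26, the first with an adjusted p of 0.0599 in limma's moderated test.

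The remaining calls of this list, named after their values were seen, were *Elf3*, higher by 0.74, and *Krt7* and *Cdkn1c*, lower by −0.73 and −0.89 on the log2 scale. Without a fold, 10 of the 22 passed the adjusted p, 3 higher and 7 lower, against 16.1% of all named genes. *Fgfr2* at −0.47 and the X-linked *Rhox9* at 0.36 were among them and were not called (adjusted p = 0.0151 and 0.0433 in limma's moderated test). The median log2 difference of all X-linked genes was 0.47. Of markers of differentiated trophoblast, *Tpbpa* and *Prl3d1* were at −0.18 and 0.07 and did not pass, and *Gcm1*, the factor of the syncytial layer, fell by 0.55 (adjusted p = 0.0301 in limma's moderated test) at a fold that was not called, since its computed means were 4.50 and 3.96 and the fold 0.685. In the arrays in which *Gata3* and *Gata2* were higher, the keratins, *Phlda2* and *Cdkn1c* were thus lower, and *Ets2* and *Elf3* were higher. Fibroblast signal, with a median log2 difference of −0.81, was lower in the same direction as the keratins, and its part in their differences was not tested. With Student's test 4 of the 22 genes were called (*Ets2*, *Krt7*, *Krt8* and *Phlda2*), against 5.86% of all named genes.

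Genes of the primitive endoderm beyond *Gata4* and *Gata6* were called in 4 of 21 cases, 1 higher and 3 lower (19.0% against 8.52%), with a median log2 difference of −0.13. *Sox7*, a factor that acts with GATA4 and GATA6, rose by 0.88 (standard error 0.13, adjusted p = 0.00516 in limma's moderated test), from a computed mean of 4.91 to 5.79. *Sox17*, its relative in the same layer, was at 0.04 and did not pass. *Lrp2*, an endocytic receptor of the visceral endoderm, fell by 2.07, *Lamb1*, a laminin chain, by 0.90 and the X-linked *Rhox5* by 0.81 (adjusted p = 0.000587, 0.000721 and 0.0333, same test). *Sparc* and *Lamc1*, bright genes that were not called, were at 0.18 and 0.10. *Foxa2*, *Hnf4a*, *Ttr* and *Afp* lay between −0.13 and 0.08. *Cubn*, at −0.55, passed the adjusted p at a fold that was not called (adjusted p = 0.0388 in limma's moderated test). *Dab2* and *Amn*, at −0.92 and −0.54, did not pass. Of the 21 genes, 8 had a positive difference and 13 a negative one. Fibroblast signal, with a median log2 difference of −0.81, was lower in the same direction as *Lrp2*, *Lamb1* and *Rhox5* and opposite to *Sox7*. Its part in the differences of these genes was not tested.

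*Eomes*, *Hand1*, *Gata4* and *Gata6* also act in mesoderm and the primitive streak. Of 15 listed genes of that kind 12 were measured and 2 called, *T* (brachyury), which fell by 0.86, and *Gsc*, which rose by 0.80 (adjusted p = 0.00504 and 0.0133 in limma's moderated test), a share of 16.7% against 8.52% of all named genes. The computed means of *Gsc* were 3.31 in WT and 4.11 in *Alkbh1*-/- mESCs, below the median of all probe sets, 6.31. The lowest mean of any probe set was 3.22, so that these readings do not show whether the *Gsc* transcript was present. The median of the 12 was 0.03. *Bmp4* and *Foxf1*, which were not called, were at 0.23 and −0.26, and *Mixl1*, *Mesp1* and *Hand2* did not pass.

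**Figure D4:**
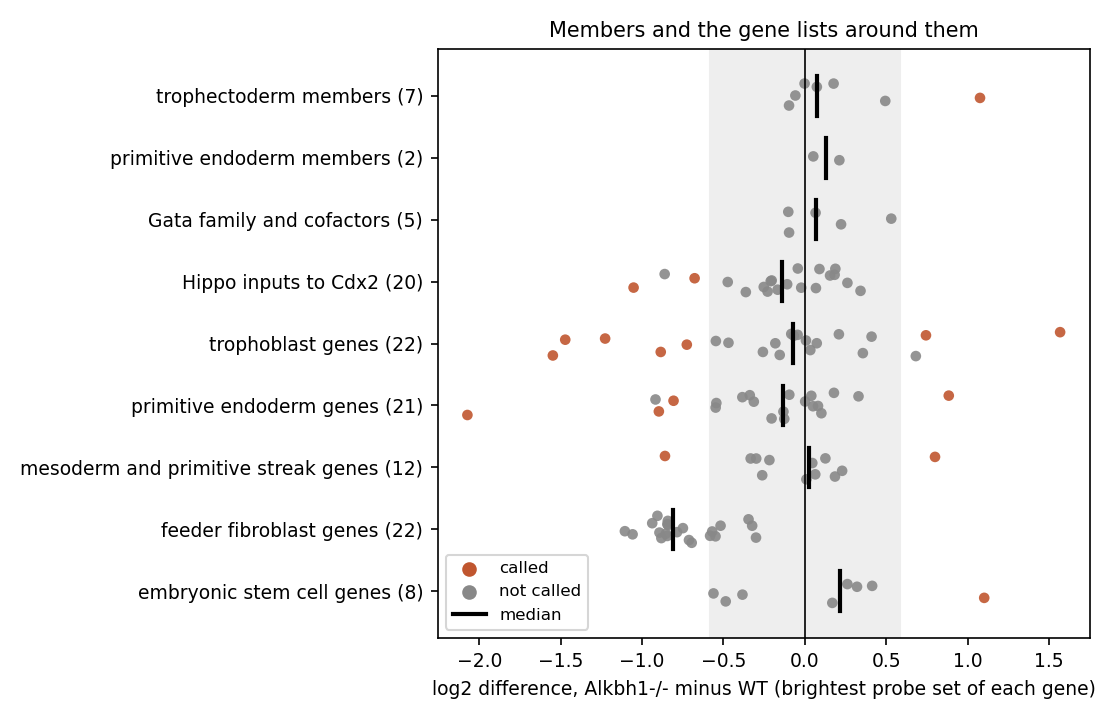
The log2 difference, *Alkbh1*-/- minus WT, of each gene (points) at its brightest probe set in the members and the lists around them, with the number measured in parentheses, the median (black line) and a grey band for a difference under 1.5-fold; orange points were called. The 22 fibroblast genes lie to the left of 0, with a median of −0.81, and the trophoblast genes spread from −1.55 to 1.57.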

How the data were processed

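Total RNA of WT and *Alkbh1*-/- mESCs was hybridised to Affymetrix arrays of the mouse genome, 3 for each genotype. The authors normalized the 6 arrays jointly by RMA (robust multi-array averaging, named in the submitters' processing notes) and deposited log2 values for 33142 probe sets, namely the difference between genotypes and the average of all arrays. The filter behind this table is not given in the sources used here. The deposited score of each probe set is the moderated statistic of limma, with its p-value as the authors computed it; the sign of that score is opposite to the difference in all 33142 probe sets. A class comparison deposited beside it gives geometric mean intensities per genotype as the authors' means. It was used for the direction alone: within 0.001 on the log2 scale, 4261 of its 4326 entries matched a probe set as *Alkbh1*-/- minus WT and 7 the other way. Its p-values, fold and annotation, and the adjusted p and log-odds of the larger table, were not used.

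A limma fit to single arrays could not be run, so the deposited difference and p-value stand for it. Standard errors were computed as the difference over the statistic, group means as the mean plus or minus 0.5 times the difference, and intervals of 95% from 7.14 total degrees of freedom, 4 from the arrays and 3.14 from the prior, recovered from the statistic and its p-value. The prior variance was 0.0160. This recovery was tested on simulated data. Benjamini-Hochberg adjustment ran over all probe sets. A call needed a fold above 1.5, on the linear scale, and an adjusted p under 0.05. Probe sets were named through RefSeq genes of GRCm38.p6 (28205 of 33142), by gene identifier, accession, symbol or older symbol. Named genes are the members at every probe set, *Alkbh1* and, from each list, up to 4 called genes by size and the 2 brightest not called; others were named after their values were seen. Members and lists were chosen with earlier results of these data known. Not analysed here were *Elf5*, *Prl3b1*, *Pparg*, *Syna*, *Synb*, *Lhx1*, *Wnt3* and *Tbx20*. The software was limma 3.58.1 in R 4.3.3, and SciPy 1.17.1, matplotlib 3.10.9 and pandas 2.3.3 in Python 3.11.15.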

Additional observations from a re-analysis of the deposited data

How the results depend on the processing

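The difference of *Gata3* kept its direction and an adjusted p under 0.05 under every test it could enter; with the adjustment restricted to probe sets at or above the median mean it was not tested. *Gata2*, at 0.49, kept its direction and lost the adjusted p of 0.05 with Student's test, which borrows no variance from other probe sets. The difference of *Eomes* moved to −0.0863 with the mean of its probe sets, and that of *Gata6*, which did not pass in any setting, to −0.0052. The other members kept their side of the threshold under every test they could enter.

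The number of members called, 1, went to 0 in the restricted set of brighter probe sets and at a log2 difference over 1.5, and to 2 without a fold. The number with an adjusted p under 0.05, 2, went to 1 with Student's test (*Gata3*) and to 1 in the restricted set (*Gata2*). With Student's test, calls went from 2 to 0 among Hippo genes, from 7 to 4 among trophoblast genes and from 2 to 1 among mesoderm genes. The share of all named genes called went from 8.52% to 5.86%. A log2 difference over 1.5 left 0 Hippo, 2 trophoblast, 1 primitive endoderm, 0 mesoderm and 0 embryonic stem cell genes. The restricted set left 2 primitive endoderm genes and 1 mesoderm gene. Without a fold, 1 gene of the Gata family and cofactors and 5 embryonic stem cell genes passed, against 16.1% of all named genes. Among fibroblast genes, 3 were called with a trended prior variance (8.9% of all named genes), 11 at an unadjusted p (9.74%) and 1 with any probe set counted. Leaving out X- and Y-linked genes, chosen after the data were seen, left 1 Hippo gene called. No share of all named genes was taken in that setting, in the restricted set or at a log2 difference over 1.5. None was taken with any probe set counted either. In those settings a changed count cannot be told apart from a change in calls over all genes. Centring on the median of all probe sets, which was −0.01, changed no call of a member. Leaving out each array was not run, since single-array values were not analysed here. No paired analysis was possible because the tables analysed here carry no array numbers. With 3 arrays a genotype, the precision of every difference is limited.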
